A study of Homo sapiens with 16 samples.

Results

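The genes described here are 42 rows of a gene count table that carry the symbols of glycolytic enzymes and of targets and regulators of the hypoxia-inducible factors (HIF). They were picked out of 26485 rows by symbol; the rule sets no threshold on measured values, but the list was drawn up with earlier results of these data known. By role they are 16 glycolytic enzymes, 2 glucose transporters, 3 regulators of glycolysis and pyruvate entry, 3 HIF subunits, 2 HIF hydroxylases, 2 secreted factors, 2 carbonic anhydrases, 2 mitophagy receptors, 4 collagen-modifying enzymes, 2 histone demethylases and 4 genes of transcription or other function.

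The data came from total RNA of PC3 cells, an established human prostate cancer line, and HeyA8 cells, an established human ovarian cancer line, both labelled wild type. Cells of each line were either mock treated or transfected with 1 nM (the dose in the sample labels) of siNT1, siGGGGGC or siCAG, and RNA was taken after 24 or 48 h. siNT1 is a nontargeting control siRNA, siGGGGGC carries the seed GGGGGC and acts through short matches to that seed in mRNAs as a microRNA does, and siCAG carries CAG repeats. The titles and count columns name the siGGGGGC libraries siMxy, so their identity rests on the treatment field of the labels. One library was made for each line, treatment and time, giving 16 libraries of 27937092 to 31790209 counted reads. The 24 and 48 h libraries of a treatment served as its 2 replicates, with a term for time in the model. Each p-value of a siRNA contrast rested on the spread left over all 8 libraries of the line after a shared shift between times. That spread includes any difference between treatments in the shift between times.

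Marker genes were read for both lines. In PC3 libraries HOXB13, a prostate homeobox gene, lay between 86.2 and 524 CPM and TMPRSS2 between 17.4 and 39.7 CPM, while the prostate kallikreins KLK3 (prostate-specific antigen) and KLK2 were at 0 in all 8 and FOLH1 was at most 1.56 CPM. CPM denotes read counts relative to library size, scaled by the trimmed mean of M values (TMM) within a line. In HeyA8 libraries PAX8, a Müllerian transcription factor, lay between 59.5 and 217 CPM, MECOM between 49.8 and 113 CPM and KRT8 between 273 and 932 CPM. Other ovarian or Müllerian genes were low in HeyA8 libraries or similar in both lines. MUC16 was at most 0.158 CPM there, and SOX17 lay between 0.0649 and 0.915 CPM there and at 0 in all PC3 libraries. WT1 had a median of 14.2 CPM in HeyA8 libraries beside 10.8 CPM in PC3 libraries. The epithelial genes EPCAM and CDH1 were at most 1.70 and 0.0983 CPM in HeyA8 libraries. The leukocyte genes PTPRC and CD3E were at most 0.427 and 0 CPM in every library of either line and ALB, the liver albumin gene, at most 0.142 CPM. The endothelial gene PECAM1 reached 5.29 CPM in PC3 and 1.75 CPM in HeyA8 libraries, and COL1A1, a collagen gene of fibroblasts, lay between 23.9 and 62.7 CPM in PC3 and between 3.17 and 40.6 CPM in HeyA8 libraries. Some of these markers moved with the treatments. In PC3 cells HOXB13 was 104 and 86.2 CPM after siGGGGGC, below its range of 196 to 524 CPM in the 4 controls, and MECOM was 6.67 and 5.75 CPM, below 15.4 to 22.2 CPM. In HeyA8 cells PAX8 was 76.7 and 59.5 CPM after siGGGGGC, below 131 to 187 CPM in controls, and COL1A1 was 17.9 and 40.6 CPM after siCAG, above 3.89 to 9.59 CPM. Their part in the results was not tested.

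One pair of libraries stood apart. Between 24 and 48 h, 26.4% of the genes tested in HeyA8 cells differed by more than 2-fold in the siCAG libraries, against 3.25% in mock, 3.8% in siNT1 and 10% in siGGGGGC libraries of that line. The siCAG tests that name genes in HeyA8 cells, and those of the siCAG interaction, were repeated without each of them.

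Glycolysis turns glucose into pyruvate in the cytosol, and lactate dehydrogenase then reduces pyruvate to lactate. In cells short of oxygen the HIF α subunits escape hydroxylation by the EGLN enzymes, pair with ARNT (HIF-1β) and raise the transcription of glucose transporters, most glycolytic enzymes and genes of angiogenesis, pH control, mitophagy and collagen modification.

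HIF dimers bind the core motif RCGTG, so the motifs ACGTG and GCGTG were searched on both strands in the 300 bases around the RefSeq transcription start (250 before, 50 after; GRCh38.p14). Of the 42 symbols, 38 had a promoter in that table. Either motif was present in 28 of these 38 (73.7%), against 48.4% of all 27305 promoters, and the members' promoters had a median GC content of 69.2% against 58.3%. The promoters of the 2 motif-holding genes with the largest changes after siGGGGGC in PC3 cells are printed, with each match in capitals.
ADM, chr11:10304823-10305122, plus strand: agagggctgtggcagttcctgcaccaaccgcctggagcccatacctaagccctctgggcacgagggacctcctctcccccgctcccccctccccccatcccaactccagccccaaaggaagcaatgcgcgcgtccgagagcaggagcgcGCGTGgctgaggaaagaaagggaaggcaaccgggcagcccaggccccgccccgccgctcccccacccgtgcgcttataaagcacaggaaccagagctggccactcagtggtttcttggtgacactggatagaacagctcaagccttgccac
SLC2A1, chr1:42958819-42959118, minus strand: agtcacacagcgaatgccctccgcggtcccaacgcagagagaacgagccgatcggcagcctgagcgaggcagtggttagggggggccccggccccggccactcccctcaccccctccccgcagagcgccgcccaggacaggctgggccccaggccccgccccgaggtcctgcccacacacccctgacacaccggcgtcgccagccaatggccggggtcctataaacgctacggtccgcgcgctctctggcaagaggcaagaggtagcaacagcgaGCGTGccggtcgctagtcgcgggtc
Each holds 1 GCGTG match on the strand shown and no ACGTG match. Among the members that rose after siGGGGGC in PC3 cells 16 of 20 promoters (80.0%) held either motif, and among the others 12 of 18 (66.7%). These matches describe the letters of the window and were not tested as binding sites.

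The siGGGGGC seed pairs with GCCCCC in mRNA. In the longest annotated 3′ UTR of each gene (GENCODE 44, hg38), GCCCCC was present in 16 of the 41 members tested in PC3 cells (39.0%) and in 32.4% of all 12686 tested genes with such a transcript. No member was called lower against siNT1, so the following sites were picked after the values were seen, from the site holder with the largest rise (SLC2A1), another that rose (BNIP3) and one with a log2 fold change near 0 (VEGFA). Of the members called lower against mock, NDRG1 held 3 sites, which are not shown, and HIF1A held 0. Capitals mark GCCCCC, with 12 bases on each side.
SLC2A1, chr1:42925620-42925625, minus strand: tcatttggaattGCCCCCtctggttcctct
BNIP3, chr10:131970461-131970466, minus strand: caccagcctgcaGCCCCCaaaggccccagc
VEGFA, chr6:43785394-43785399, plus strand: cacgcgcatctcGCCCCCaggggcactgcc
Over all genes tested in PC3 cells, the median log2 fold change was -0.09 where the 3′ UTR held the site and 0.04 where it did not. Among members the medians were 0.67 for the 16 with a site and 0.74 for the 25 without, and 6 and 14 of them, respectively, rose. With the transcript of longest coding sequence instead, 11 of 41 members held the site, and the medians were 0.48 with it and 0.79 without. In HeyA8 cells the medians of members were 0.13 with the site and 0.23 without, on the transcript of longest 3′ UTR. The sites shown for BNIP3 and VEGFA are absent from the 3′ UTR of their transcript with the longest coding sequence.

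Transfection of siGGGGGC into PC3 cells was followed by higher levels of glycolysis genes. Of the 41 members that passed the filter on low counts, 20 rose and 0 fell against siNT1 (edgeR quasi-likelihood test, adjusted p under 0.05), where 3.67% of all 15136 genes tested rose and 6% fell. The log2 fold change was above 0 for 39 of 41 members, with a median of 0.74 against 0.00 over all genes. Both siGGGGGC libraries lay above both siNT1 libraries for 27 of 41 members (28.5% of all genes) and below them for 1, HIF1A (28.7% of all genes). At an unadjusted p under 0.05, 28 members were higher (15% of all genes) and 1 was lower (17.1%). In bulk RNA, fewer cells of a type and less RNA per cell cannot be told apart. The median log2 ratio of members was 0.51 at 24 h and 1.01 at 48 h. For 31 of 41 the absolute log2 ratio, in either direction, was larger at 48 h. SLC2A3, the neuronal-type glucose transporter, was the member not tested: it had 0 counts in 6 PC3 libraries and 3 and 2 counts in the siGGGGGC libraries at 24 and 48 h.

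The number called depended on single libraries and on the model. Leaving out the 24 h siGGGGGC library gave 27 members higher (10.1% of all genes higher, 13.4% lower), and leaving out the 48 h one gave 5 (0.524% and 3.47%). Without the 48 h one the log2 fold changes of the 20 lay between 0.41 and 1.66, and ADM, SLC2A1, PFKP, KDM3A and ENO2 were the 5 still called. Without the 24 h or the 48 h library the log2 fold change was 2.35 or 1.22 for SLC2A1, 1.95 or 0.94 for KDM3A, 1.98 or 0.75 for BNIP3, 1.77 or 0.80 for ANKRD37, 1.72 or 0.74 for PFKFB3, 1.56 or 0.47 for PGK1, and 1.37 or 0.55 for HK2. Without the 48 h library it was 0.60 for TPI1, 0.50 for PGAM1, 0.49 for HK1, and 0.47 for LDHA and P4HA1. It was then 0.43 for EGLN1 and 0.41 for PFKFB4, ENO1, PKM and GAPDH. Each of these values was higher without the 24 h library. Leaving out either siNT1 library gave 0 members, and then 0 of all genes passed, while the members' median log2 fold change was 0.78 or 0.71. Without a term for time 5 members were called (1.17% of all genes higher, 2.96% lower), and 8 from the 4 compared libraries alone (0.512% and 2.48%), all higher. The fit without the siCAG libraries called 12 members higher and 1 lower (2.19% and 5.85% of all genes). All 20 kept a positive log2 fold change in each of these fits.

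**Figure D1:**
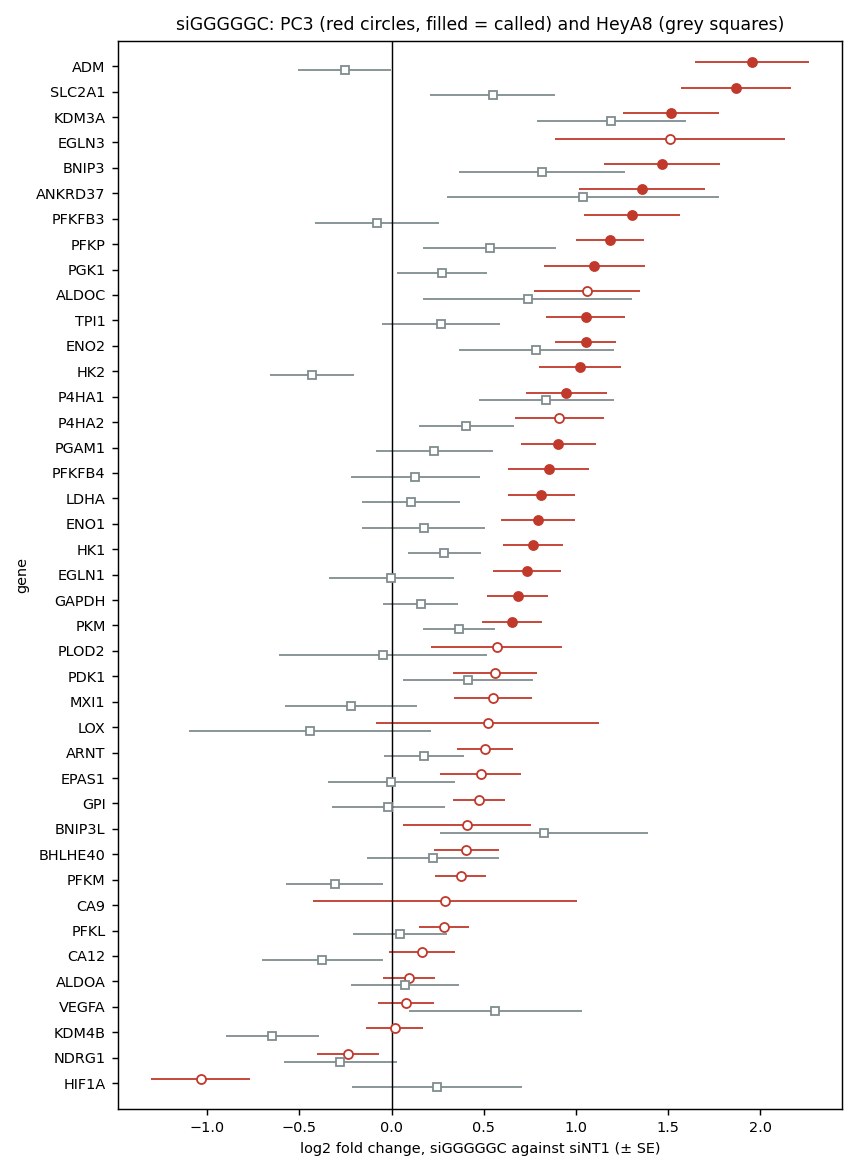
Log2 fold change ± SE of each member after siGGGGGC against siNT1 (x axis), in PC3 cells (red circles, filled where adjusted p was under 0.05; 41 genes) and HeyA8 cells (grey squares, 40 genes). ADM and SLC2A1 stand highest in PC3 cells, HIF1A lies lowest, and HK2 lies on opposite sides of 0 in the lines.

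Of the genes of glucose entry and the first steps of its breakdown, SLC2A1, HK1, HK2 and PFKP rose, and GPI, PFKL, PFKM, ALDOA and ALDOC did not pass. SLC2A1 encodes GLUT1, the transporter that takes up glucose in most cells, and lies at chr1:42925353-42958893, minus strand. It had 98.1 and 112 CPM in siNT1 cells at 24 and 48 h and 233 and 589 CPM in siGGGGGC cells. Mock cells, at 87.0 and 123 CPM, overlapped siNT1 cells, and both siGGGGGC libraries lay above all 4 controls. The log2 fold change against siNT1 was 1.87 ± 0.30 (SE, adjusted p = 0.0177, edgeR).

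HK2, the inducible hexokinase that traps glucose as glucose 6-phosphate, had 143 and 186 CPM in siNT1 and 225 and 465 CPM in siGGGGGC cells. HK1, the hexokinase of most tissues, had 513 and 526 CPM against 751 and 1027 CPM. Both hexokinases were higher in each siGGGGGC library than in any control library, and both passed, with log2 fold changes of 1.02 and 0.77. PFKP, a phosphofructokinase isozyme of the committed step, had 140.2 and 152 CPM against 258 and 419 CPM and the smallest p of all members (log2 fold change 1.18 ± 0.18, adjusted p = 0.0169, edgeR). The other isozymes, PFKM and PFKL, had log2 fold changes of 0.38 ± 0.14 and 0.29 ± 0.14 and missed the threshold (adjusted p = 0.111 and 0.190, edgeR).

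PFKFB3 and PFKFB4 make fructose 2,6-bisphosphate, the activator of phosphofructokinase. PFKFB3 had 51.8 and 74.3 CPM in siNT1 and 95.3 and 232 CPM in siGGGGGC cells (log2 fold change 1.31 ± 0.26, adjusted p = 0.0288, edgeR). PFKFB4 had 40.6 and 71.5 CPM against 58.1 and 156 CPM, so its groups overlapped although it passed in the model with time (log2 fold change 0.85). Mock cells had 62.8 and 104 CPM of PFKFB4, and against mock it missed the threshold (0.26 ± 0.22, adjusted p = 0.4, edgeR). PDK1, the kinase that keeps pyruvate out of mitochondria, had 49.2 and 74.1 CPM against 61.6 and 124 CPM and missed the threshold (adjusted p = 0.137, edgeR).

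Enzymes of the lower part of the pathway also rose. Of the 16 glycolytic enzymes 11 rose and 0 fell against siNT1 (3.67% and 6% of all genes), and all 16 had a positive log2 fold change, between 0.09 (ALDOA) and 1.18 (PFKP). Against mock only HK1, HK2, PFKP, PGAM1 and ENO2 of them passed (8.83% of all genes rose), and ALDOA and PFKL lay below 0 (-0.25 and -0.04). Between siNT1 and mock cells the log2 fold change was above 0 for 1 of the 16, with a median of -0.30. PGK1, which makes ATP from 1,3-bisphosphoglycerate, had 878 and 1298 CPM in siNT1 and 1344 and 3616 CPM in siGGGGGC cells, so that the 24 h library lay close to the siNT1 library at 48 h and below mock cells (1508 and 1812 CPM). LDHA, the lactate dehydrogenase subunit favoured under hypoxia, had 1712 and 2464 CPM against 2542 and 5005 CPM, with mock cells at 2552 and 3218 CPM. For both genes the 48 h siGGGGGC library, and not the 24 h one, stood above all 4 controls. The log2 fold change of PGK1 was 1.10 ± 0.27 (adjusted p = 0.0465, edgeR) and that of LDHA 0.81.

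TPI1, PGAM1, ENO1, ENO2 and PKM also rose, with log2 fold changes between 0.65 (PKM) and 1.05 (TPI1 and ENO2). GAPDH, often taken as a constant reference in quantitative PCR, had 2521 and 3017 CPM in siNT1 and 3473 and 5579 CPM in siGGGGGC cells (log2 fold change 0.68). It was higher after siGGGGGC also with RLE size factors and with library totals alone. Mock cells had 3258 and 3519 CPM of GAPDH, and against mock it missed the threshold (0.38 ± 0.17, adjusted p = 0.134, edgeR). Without the 48 h siGGGGGC library its log2 fold change against siNT1 was 0.41. Summed over the 16 enzymes, the level was 12702 and 16482 CPM in siNT1, 17340.4 and 19223 CPM in mock, and 18303 and 32058 CPM in siGGGGGC cells, where the 48 h library gave 3.21% of its scaled counts to these genes. GENCODE 44 names 65 GAPDH, 44 BNIP3, 13 PGAM1 and 6 LDHA pseudogenes, and reads shared with such copies may have been counted elsewhere or dropped.

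HIF targets outside glycolysis rose in part. ADM, the vasodilator peptide adrenomedullin, had 7.34 and 6.6 CPM in siNT1, 6.22 and 3.99 CPM in mock and 22.9 and 31.6 CPM in siGGGGGC cells, with the largest log2 fold change of the members tested (1.96 ± 0.31, adjusted p = 0.0174, edgeR). BNIP3, a mitophagy receptor, had 83.2 and 144 CPM against 153 and 545 CPM (1.47 ± 0.31, adjusted p = 0.0331, edgeR). Mock cells had 123 and 216 CPM of BNIP3, and against mock it missed the threshold (0.89 ± 0.31, adjusted p = 0.0754, edgeR). KDM3A, a histone H3K9 demethylase, had 67.1 and 84.3 CPM against 133 and 327 CPM (1.52 ± 0.26, adjusted p = 0.0200, edgeR). P4HA1 (a collagen prolyl hydroxylase subunit), EGLN1 (the main HIF prolyl hydroxylase, PHD2) and ANKRD37 completed the 20, ANKRD37 on 40 to 151 counts a library (1.36 ± 0.34, adjusted p = 0.0473, edgeR).

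Other classical targets did not pass. VEGFA, the angiogenic growth factor, had 96.3 and 113 CPM in siNT1 and 103 and 117 CPM in siGGGGGC cells (log2 fold change 0.08 ± 0.15, adjusted p = 0.759, edgeR). NDRG1, a hypoxia- and differentiation-linked gene, had 179.6 and 362 CPM against 150.2 and 311 CPM (-0.24 ± 0.17, adjusted p = 0.359, edgeR). CA9, the membrane carbonic anhydrase strongly tied to hypoxia, stayed between 0.107 and 0.931 CPM in all 8 PC3 libraries, which is 3 to 28 counts.

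HIF1A itself stood lower. It lies at chr14:61695513-61748259, plus strand, and its mRNA level was 680.0 and 737 CPM in mock, 658 and 379 CPM in siNT1 and 246 and 241 CPM in siGGGGGC cells. Both siGGGGGC libraries lay below all 4 controls, but the test against siNT1 just missed the threshold (log2 fold change -1.04 ± 0.27, adjusted p = 0.0505, edgeR). It was called lower by the DESeq2 Wald test (adjusted p = 0.00596) and the edgeR likelihood ratio test (adjusted p = 0.00484) of the same libraries, and against mock (-1.55 ± 0.27, adjusted p = 0.0116, edgeR). In siCAG cells HIF1A was at 521 and 273 CPM, so that the 48 h library also lay below all 4 controls. Against mock that difference missed the threshold (-0.91 ± 0.27, adjusted p = 0.114, edgeR). No GCCCCC lies in its longest 3′ UTR. HIF protein, oxygen and lactate were not measured in these files.

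Calls differed with the control. Against mock, 12 members rose and 2 fell after siGGGGGC (8.83% and 12.3% of all genes), and the median log2 fold change of members was 0.41. ADM, SLC2A1, PFKP, KDM3A, PFKFB3, HK1, HK2, PGAM1 and ENO2 passed against both controls. VEGFA, EPAS1 and P4HA2 passed against mock and missed the threshold against siNT1, with VEGFA against mock at 1.00 ± 0.15 (adjusted p = 0.00840, edgeR). The 2 members called lower against mock were HIF1A and NDRG1. These comparisons share the siGGGGGC libraries and one fit.

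Between siNT1 and mock PC3 cells 0 members passed (edgeR; 0.205% of all genes were higher and 0.0264% lower), with 2 members higher (5.15% of all genes) and 7 lower (3.86%) at an unadjusted p under 0.05, and the DESeq2 Wald test called 2 (1.14% of all genes higher, 0.614% lower). VEGFA was 54.0 and 55.6 CPM in mock and 96.3 and 113 CPM in siNT1 cells (log2 fold change 0.93 ± 0.15, adjusted p = 0.0870, edgeR). EPAS1, which encodes HIF-2α, was 96.4 and 67.2 CPM against 174 and 163 CPM (1.06 ± 0.22, adjusted p = 0.168, edgeR), and ALDOC, the brain aldolase, had a log2 fold change of -0.99 ± 0.29 (adjusted p = 0.314, edgeR). The log2 fold change was below 0 for 32 of 41 members, with a median of -0.30, and both siNT1 libraries lay below both mock libraries for 17 (22.9% of all genes) and above them for 5 (23.4%). In HeyA8 cells 0 of 40 members and 0% of all genes passed between these controls (edgeR), and 2 members, ADM and SLC2A3, were higher in siNT1 at an unadjusted p under 0.05 (0.642% of all genes higher, 0.634% lower). Both siNT1 libraries lay above both mock libraries for 13 members (19.4% of all genes) and below them for 2 (20.9%).

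**Figure D2:**
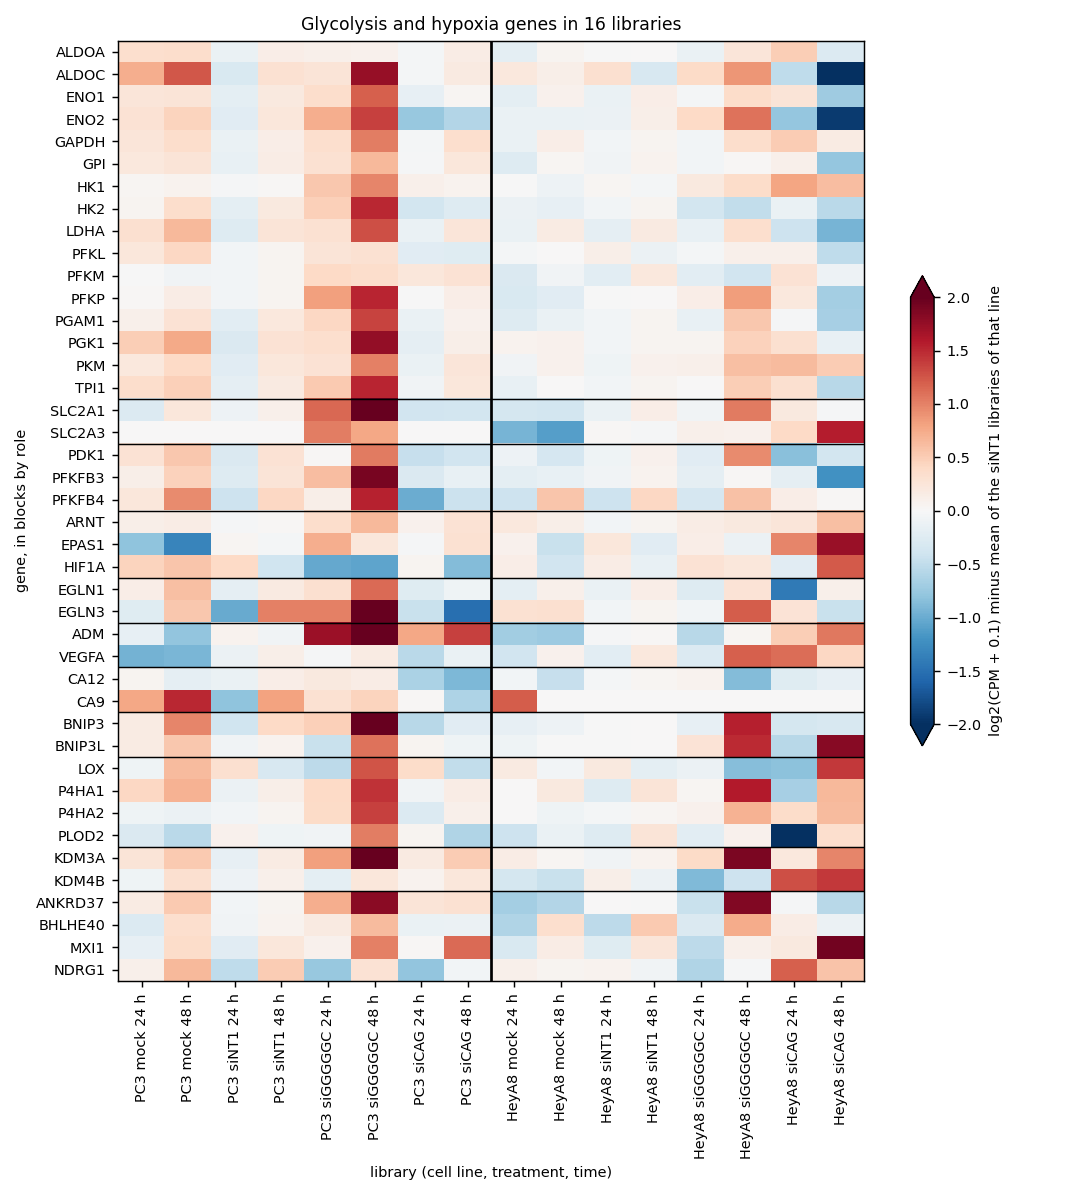
Each of the 42 genes (rows, in blocks by role from glycolytic enzymes at the top) in each library (columns), as log2(CPM + 0.1) minus the mean of the siNT1 libraries of that line; colours saturate at 2 on either side. The siGGGGGC libraries at 48 h are red for most rows in both lines; rows near 0 counts (SLC2A3 in PC3, CA9 and EGLN3) carry little information.

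In HeyA8 cells no member passed after siGGGGGC, and most members stood higher at 48 h than at 24 h. Of 40 members tested 0 were called (0% of all 13872 genes passed in either direction, edgeR). Without the siCAG libraries in the fit, 0 members were called as well, while 0.959% of all genes passed as higher and 2.56% as lower. At an unadjusted p under 0.05, 1 was higher (3.61% of all genes) and 1 lower (6.13%). The DESeq2 Wald test also called 0 members (0.396% of all genes higher, 1.9% lower), and a fit of the 4 compared libraries alone called 4, all higher (3.09% and 5.78% of all genes). Both siGGGGGC libraries lay above both siNT1 libraries for 11 members and below them for 3 (25.4% of all genes either way). The median log2 fold change was 0.17, with median log2 ratios of 0.04 at 24 h and 0.23 at 48 h. For 33 of 40 members the absolute log2 ratio was larger at 48 h, which counts larger falls as well as larger rises. Without the 48 h siGGGGGC library the median was -0.06 and without the 24 h one 0.34. The smallest p belonged to KDM3A, which had 41.1 and 45.1 CPM in siNT1 and 55.9 and 159 CPM in siGGGGGC cells (1.19 ± 0.40, adjusted p = 0.440, edgeR), followed by KDM4B (-0.65 ± 0.25) and P4HA1 (0.84 ± 0.37), all missing the threshold. Without the 24 h or the 48 h siGGGGGC library the log2 fold change was 1.75 or 0.51 for KDM3A, -0.39 or -0.93 for KDM4B and 1.25 or 0.37 for P4HA1.

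At 48 h single genes in HeyA8 cells reached levels not seen in controls. BNIP3 had 101 and 101 CPM in siNT1 and 90.1 and 294 CPM in siGGGGGC cells, so the 48 h library stood apart and the 24 h one did not. SLC2A1 had 166 and 198 CPM against 173 and 374 CPM, and P4HA1 33.1 and 47.0 CPM against 40.5 and 118 CPM. Across members, the 48 h siGGGGGC library lay above all 4 control libraries for 27 of 40 in HeyA8 cells (34.7% of all genes) and for 35 of 41 in PC3 cells (36.7% of all genes). At 24 h it did so for 11 of 40 (23.7% of all genes) and 18 of 41 (33.6% of all genes). One library a line and time carries each of these counts, so they have no replicate check.

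The difference between lines in the response to siGGGGGC was tested as an interaction in a fit of all 16 libraries. It passed for 0 of 42 members and 0% of 15887 genes (edgeR), with 6 members higher in PC3 (2.23% of all genes) and 1 lower (4.41%) at an unadjusted p under 0.05, among the former SLC2A3, which had 0 counts in PC3 controls. The DESeq2 Wald test called 1 member, higher in PC3 (0.0441% of all genes higher, 0.0755% lower). ADM gave the smallest p (PC3 minus HeyA8 log2 difference 2.20 ± 0.41, adjusted p = 0.639, edgeR): in HeyA8 cells it had 64.5 and 67.2 CPM in siNT1 and 44.7 and 67.9 CPM in siGGGGGC cells. HK2 followed (1.44 ± 0.34, adjusted p = 0.667, edgeR), with 128 and 139.8 CPM in siNT1 and 104 and 95.5 CPM in siGGGGGC HeyA8 cells. HIF1A, at 169 and 139 CPM in siNT1 and 188 and 178 CPM in siGGGGGC HeyA8 cells, had a difference of -1.29 ± 0.56 (adjusted p = 0.746, edgeR).

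**Figure D3:**
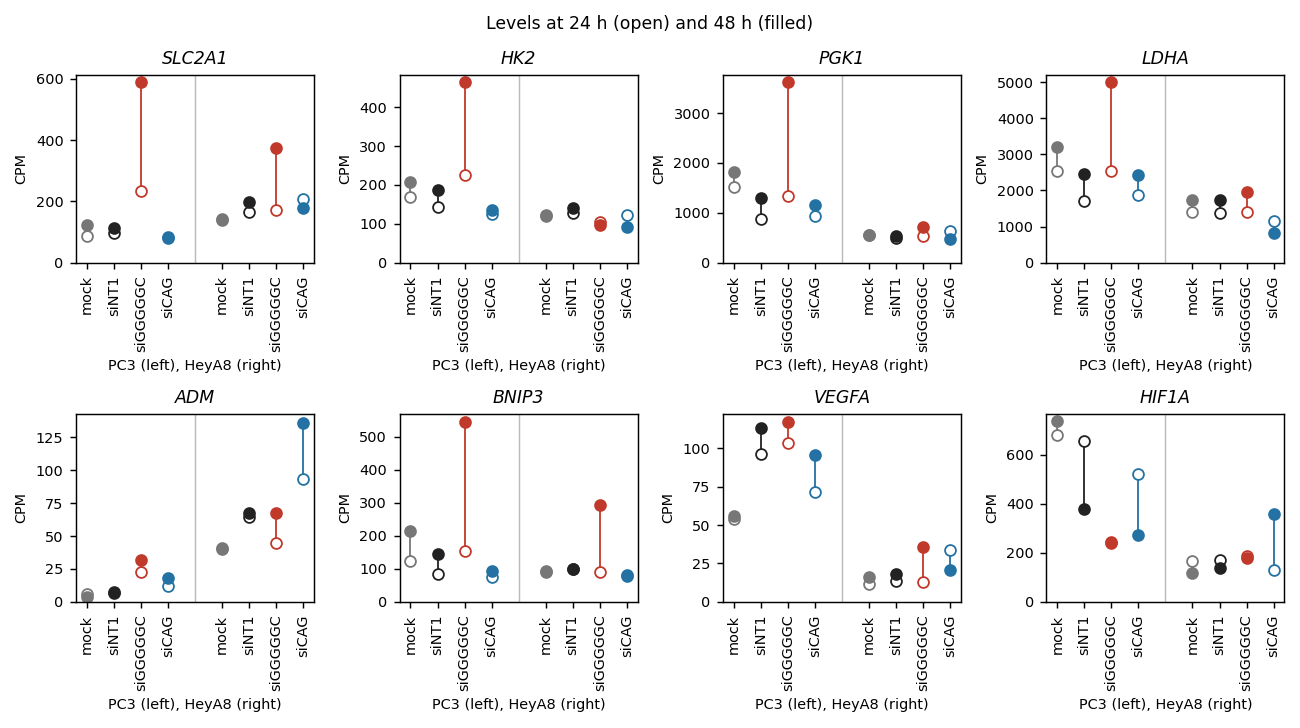
Levels in CPM (y axis, from 0) of 8 genes in each treatment, PC3 on the left and HeyA8 on the right of each panel; open circles are 24 h and filled circles 48 h libraries, joined by a line. SLC2A1, PGK1, LDHA and BNIP3 peak in the siGGGGGC library at 48 h in both lines, HK2 only in PC3, and HIF1A is low in both PC3 siGGGGGC libraries.

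After siCAG no member passed in PC3 cells. Against siNT1 0 of 41 members were called (edgeR; 0.0396% of all genes were higher and 1.16% lower), and the median log2 fold change was -0.02. At an unadjusted p under 0.05, 2 members were higher (4.95% of all genes) and 4 lower (8.51%). Both siCAG libraries lay above both siNT1 libraries for 6 members (22.1% of all genes) and below them for 9 (22.8%). The DESeq2 Wald test called 3 members (0.753% of all genes higher, 3.03% lower) and a fit of the 4 compared libraries alone called 8, of which 6 were lower (4.92% and 11.1%). The smallest p belonged to CA12, a membrane carbonic anhydrase, with 52.8 and 63.5 CPM in siNT1 and 37.4 and 30.9 CPM in siCAG cells (-0.77 ± 0.18, adjusted p = 0.119, edgeR). ENO2, the neuronal enolase, had 69.6 and 79.1 CPM in siCAG cells, below all 4 controls (-0.67 ± 0.17, adjusted p = 0.141, edgeR), and ADM 11.9 and 18.1 CPM, above all 4 (1.10 ± 0.31, adjusted p = 0.182, edgeR). Against mock ADM (1.54 ± 0.31) and EPAS1 (1.22 ± 0.22) passed as higher and ENO2 (-1.04 ± 0.17) and PFKFB4 (-1.29 ± 0.22) as lower (0.826% and 1.76% of all genes).

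In HeyA8 cells 1 of 40 members was called higher after siCAG and 0 lower (2.88% of all genes were higher and 4.93% lower). Members were thus called no more often than all genes in either direction. At an unadjusted p under 0.05, 8 were higher (14.5% of all genes) and 1 lower (15.1%), and the groups did not overlap for 12 higher (28.2%) and 9 lower (27.4%). The gene was KDM4B, a histone demethylase, with 21.4 and 19.9 CPM in mock, 29.8 and 25.1 CPM in siNT1 and 66.6 and 72.9 CPM in siCAG cells (1.34 ± 0.25, adjusted p = 0.0323, edgeR). Its siCAG libraries lay close together and above all controls, and it passed without either siCAG library (1.38 and 1.29). The call was lost without either siNT1 library, from the 4 compared libraries alone and without the siGGGGGC libraries. EPAS1 came next with 91.0 and 66.1 CPM in siNT1 and 153 and 258 CPM in siCAG cells and missed the threshold (1.41 ± 0.35, adjusted p = 0.0578, edgeR), as did HK1 (0.71 ± 0.20, adjusted p = 0.0730, edgeR). Without the 24 h or the 48 h siCAG library both passed, EPAS1 at 1.93 or 0.76 and HK1 at 0.61 or 0.78, and without either siNT1 library neither did. Against mock ADM, EPAS1, KDM4B and SLC2A3 passed as higher (3.44% of all genes), SLC2A3 with 38.3 and 33.8 CPM in mock and 95.6 and 217 CPM in siCAG cells (2.07 ± 0.38, adjusted p = 0.0279, edgeR). All 4 passed without either siCAG library, with EPAS1 at 2.11 or 0.94 and SLC2A3 at 2.63 or 1.36 (without that of 24 h or of 48 h), and none of the 4 passed without either mock library. SLC2A3 and its near-identical neighbour SLC2A14 share sequence, so its counts are uncertain.

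The HeyA8 siCAG libraries gave different pictures by time. HIF1A was 130.2 and 359 CPM at 24 and 48 h, PLOD2, a lysyl hydroxylase of collagen, 161 and 1033 CPM, BNIP3L, a mitophagy receptor, 42.6 and 222 CPM, and TPI1 1569 and 855 CPM. For HIF1A, PLOD2 and BNIP3L the 48 h library lay above all controls and the 24 h library within or below their range, while for TPI1 the 24 h library lay above and the 48 h one below. The log2 fold change of HIF1A against siNT1 was 0.63, and it was 1.36 without the 24 h siCAG library and -0.39 without the 48 h one. Summed over the 16 glycolytic enzymes the level was 24866 CPM at 24 h and 17959 CPM at 48 h, against 18124 and 20145 CPM in siNT1 cells. Without the 24 h siCAG library 10 members were higher and 11 lower (14.1% and 17.4% of all genes), without the 48 h one 9 and 3 (11.0% and 21.9%), and without either siNT1 library 0. The interaction of line and siCAG passed for 0 of 42 members (edgeR; 0.384% of all genes were higher and 0.252% lower), with 7 lower in PC3 (9.03%) and 0 higher (5.61%) at an unadjusted p under 0.05 and 2 called by the DESeq2 Wald test (2.13% of all genes higher, 2.09% lower). KDM4B had the smallest p (-1.30 ± 0.29, adjusted p = 0.0787, edgeR), beside a median of -0.13 over all genes in that contrast. Without the HeyA8 24 h siCAG library 3 members passed as higher and 4 as lower in PC3 in this interaction (4.8% and 4.44% of all genes), and without the 48 h one 0 and 4 (4.5% and 1.86%). KDM4B passed in both of these fits.

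Most members stood higher at 48 h than at 24 h in PC3 cells. With all 4 treatments in one fit, 0 of 41 members passed between 48 and 24 h (edgeR; 0% of all genes were higher and 0.0264% lower), but 23 had an unadjusted p under 0.05 and all 23 were higher at 48 h (6.3% of all genes; 7.12% were lower). The DESeq2 Wald test and the edgeR likelihood ratio test each called 5 members, all higher (0.647% and 0.965% of all genes were higher, 0.799% and 0.951% lower). The level was higher at 48 h in each of the 4 treatments for 27 of 41 members (12.7% of all genes) and lower in each for 0 (10.7% of all genes). NDRG1 led with 274 and 398 CPM in mock, 179.6 and 362 CPM in siNT1, 150.2 and 311 CPM in siGGGGGC and 147 and 246 CPM in siCAG cells at 24 and 48 h (log2 fold change 0.84 ± 0.12, adjusted p = 0.175, edgeR). PFKFB4 (0.89 ± 0.15) and MXI1, a MYC antagonist (0.76 ± 0.15), followed and missed the threshold.

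Within treatments, the median log2 ratio of 48 to 24 h over the 41 members in PC3 cells was 0.25 in mock, 0.27 in siNT1, 0.93 in siGGGGGC and 0.20 in siCAG cells. In HeyA8 cells the medians over 40 members were 0.06, 0.10, 0.49 and -0.19 in the same order. In HeyA8 cells 0 members and 0% of all genes passed for time, 5 members were higher (2.59% of all genes) and 0 lower (3.75%) at an unadjusted p under 0.05 (edgeR), and 6 of 40 were higher at 48 h in each treatment (10.2% of all genes). P4HA1 (0.89 ± 0.26), MXI1 (0.83 ± 0.26) and BHLHE40, a circadian repressor (0.69 ± 0.26), had the smallest p-values there and missed the threshold. They also missed it without both siCAG libraries, where P4HA1 had 0.75 and MXI1 0.53. With the 4 HeyA8 control libraries alone 12 members passed, 9 higher and 3 lower at 48 h (5.2% and 6.76% of all genes). P4HA1 (0.34), MXI1 (0.47) and BHLHE40 (0.98) were among the 9.

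**Figure D4:**
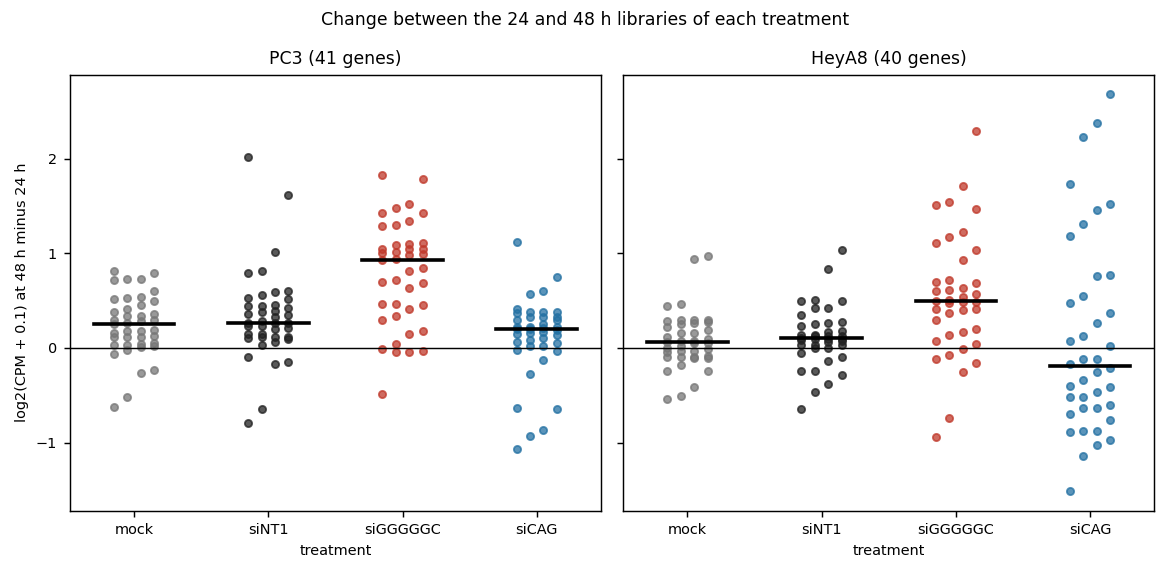
Log2(CPM + 0.1) at 48 h minus 24 h (y axis) for each member tested in PC3 (41 genes) and HeyA8 cells (40 genes), by treatment (x axis); each point is 1 gene and the black bar the median. The siGGGGGC medians stand highest in both lines (0.93 and 0.49), and in HeyA8 cells the siCAG points lie on both sides of 0, with 17 of 40 above.

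The lines entered the experiment with different levels. For this comparison CPM were scaled by TMM over the 8 control libraries of both lines together, so they differ from the within-line values above. Levels between genes are compared as these CPM per kilobase of exon (union of GENCODE 44 exons), as mean ± SD of the 4 control libraries of a line. GAPDH was the most abundant member in both, with 1152 ± 158 in PC3 and 3635 ± 290.1 in HeyA8 cells, followed by ENO1 with 578 ± 79.6 and 654 ± 72.5. LDHA (369.8 ± 91.4) and PKM (277 ± 47.2) came next in PC3 cells with ranges of 1 SD that overlapped, as did those of PGK1 (226 ± 64.5), ALDOA (217 ± 32.5) and TPI1 (204 ± 37.4). In HeyA8 cells TPI1 followed ENO1 (498 ± 27.5), and LDHA (283 ± 36.1) and PKM (248 ± 16.4) overlapped. At the low end CA9 had 0.293 ± 0.189 and EGLN3 0.102 ± 0.0634 in PC3 cells.

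Of 40 members tested between the control cells of the lines, 20 were higher and 12 lower in PC3, where 42.5% and 37.5% of all 14545 genes were higher and lower, so the members' shares lay near those of all genes. With library totals alone and no TMM factors, 26 members were higher and 11 lower, beside 52.6% and 28.1% of all genes. PC3 cells had more PFKFB4 (log2 fold change 3.40 ± 0.12), ALDOC (3.99 ± 0.24), P4HA1 (2.81 ± 0.11), CA12 (2.32 ± 0.12) and VEGFA (2.07 ± 0.16). On this scaling HIF1A was 550 ± 143 CPM in PC3 and 162 ± 26.6 CPM in HeyA8 control cells (SD, n = 4; 1.75 ± 0.16; adjusted p = 4.47e-06, edgeR). HeyA8 cells had more LOX, a lysyl oxidase (-4.28 ± 0.19), ADM (-3.41 ± 0.13), PLOD2 (-2.39 ± 0.13) and GAPDH (-1.67 ± 0.08). SLC2A3 had 0 counts in all 4 PC3 controls and, on the same scaling, a mean of 59.4 CPM in HeyA8 controls, which is at least 619-fold higher, taking 3 counts in a PC3 library as the floor. Line, tissue of origin and culture history cannot be told apart with 1 line of each kind.

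**Figure D5:**
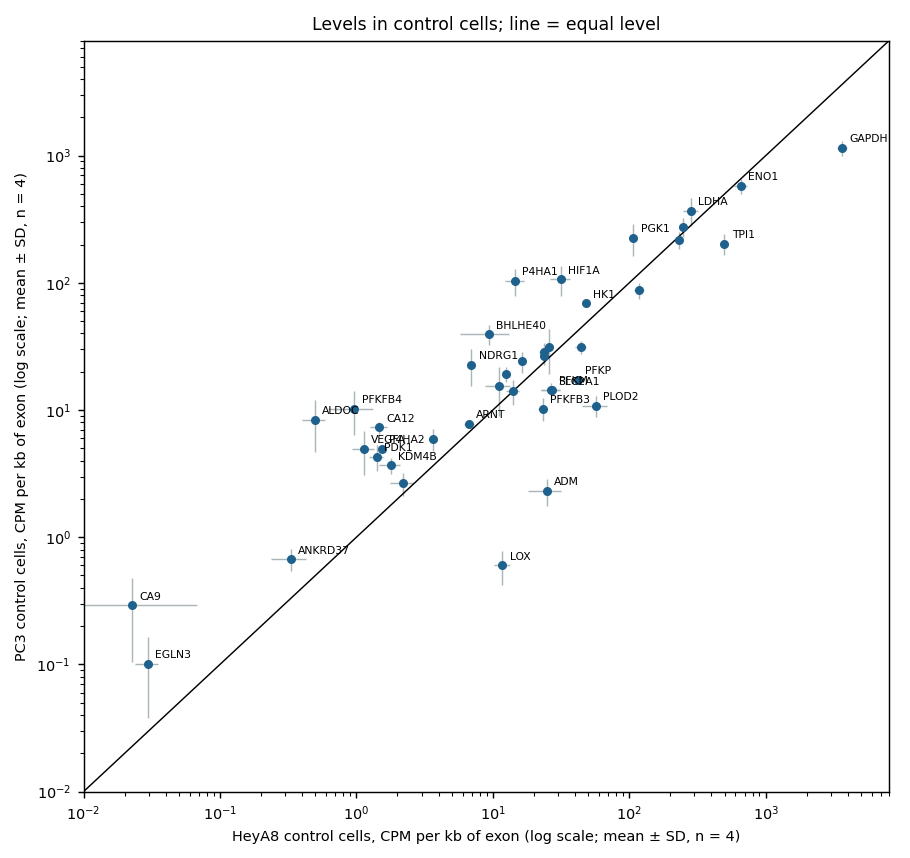
Mean level ± SD of 41 members in control cells (mock and siNT1, n = 4 libraries a line), as CPM per kilobase of exon on log axes, HeyA8 on x and PC3 on y; lower bars longer than the mean are shortened at the axis. Genes above the diagonal (ALDOC, PFKFB4, P4HA1) are higher in PC3, those below it (LOX, ADM, GAPDH) in HeyA8 cells, and SLC2A3 is left out since PC3 is at 0.

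Further genes of the same pathways were read from lists of related genes. Of 24 other glycolysis, lactate and pyruvate genes tested in PC3 cells 2 rose and 0 fell after siGGGGGC, a contrast in which 3.67% of all genes rose and 6% fell. SLC16A3, the lactate exporter MCT4, had 346 and 349.7 CPM in siNT1 and 646 and 735 CPM in siGGGGGC cells (0.99 ± 0.21, adjusted p = 0.0317, edgeR), and ENO3, the muscle enolase, rose from a low level (1.59 ± 0.40). Of 31 other hypoxia targets 6 rose and 0 fell (again beside 3.67% and 6% of all genes), led by PPFIA4 (2.15 ± 0.43), FUT11 (1.61 ± 0.22), DDIT4, an mTOR inhibitor (1.33 ± 0.23), and AK4, a mitochondrial adenylate kinase (1.31 ± 0.28). FUT11 went from 77.1 and 105 CPM in siNT1 to 178 and 406 CPM in siGGGGGC cells. Mock cells had 11.7 and 12.8 CPM of PPFIA4 and 187 and 220 CPM of AK4. In siGGGGGC cells at 24 h PPFIA4 was at 9.66 CPM and AK4 at 205 CPM, so neither stood above all controls then. For FUT11 and DDIT4 both siGGGGGC libraries lay above all controls. Without the 24 h or the 48 h siGGGGGC library PPFIA4 had a log2 fold change of 2.75 or 1.21, AK4 of 1.78 or 0.67 and ENO3 of 2.14 or 0.82, and these 3 missed the threshold without the 48 h one. The median was 0.28 over either list, against 0.00 over all genes. Across all related lists 11 genes were called, of which 11, 3, 0 and 0 passed without the siGGGGGC library at 24 h, that at 48 h, and either siNT1 library, with 11 of 11 keeping their direction.

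Of 13 other HIF regulators 2 fell and 0 rose, where 6% of all genes fell and 3.67% rose. They were HIF1AN (FIH), the asparagine hydroxylase that blocks HIF from its coactivators, and CREBBP (CBP), one of those coactivators. HIF1AN had 72.6 and 91.7 CPM in siNT1 and 52.0 and 45.8 CPM in siGGGGGC cells (-0.73 ± 0.19, adjusted p = 0.0480, edgeR), with 3 GCCCCC matches in its longest 3′ UTR of 11861 bases. CREBBP had 99.9 and 104 CPM against 48.3 and 42.9 CPM (-1.16 ± 0.17, adjusted p = 0.0133, edgeR), with 1 match there and 14 in the coding sequence. A match in the longest 3′ UTR was present in 32.4% of all tested genes with such a transcript. Of the same list EP300, with 9 matches in its coding sequence, and CITED2, with 1 in its 3′ UTR, were not called. The part of these matches in the falls was not tested. In HeyA8 cells, where 0 genes of any of these lists passed after siGGGGGC, CREBBP had 86.5 and 95.4 CPM in siNT1 and 60.4 and 50.3 CPM in siGGGGGC cells, and HIF1AN 91.8 and 104 and 70.0 and 69.9 CPM. Of 7 pentose phosphate genes TALDO1 alone rose in PC3 cells, beside 3.67% of all genes (0.62 ± 0.14, adjusted p = 0.0363, edgeR).

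After siCAG, BPGM, which makes 2,3-bisphosphoglycerate, fell in both lines. It had 19.4 and 20.2 CPM in siNT1 and 5.64 and 3.88 CPM in siCAG PC3 cells (-2.06 ± 0.23, adjusted p = 0.00518, edgeR), and 10.8 and 11.9 CPM against 2.50 and 3.11 CPM in HeyA8 cells (-2.02 ± 0.26, adjusted p = 0.0118, edgeR). ZNF395, a hypoxia-induced zinc finger gene, also fell in PC3 (-2.33 ± 0.20) and in HeyA8 cells (-1.72 ± 0.26). In PC3 cells these were the only genes of the related lists called after siCAG (0.0396% of all genes rose and 1.16% fell), and BPGM missed the threshold without the 48 h siCAG or the 48 h siNT1 library. In HeyA8 cells DDIT4 (4.21 ± 0.86), CITED2, which competes with HIF for its coactivators (2.43 ± 0.53), STC2 (1.53 ± 0.21) and PDK2 (1.42 ± 0.27) rose, and DLAT fell (-1.01 ± 0.21), where 2.88% of all genes rose and 4.93% fell. DDIT4 had 5.43 and 9.26 CPM in siNT1 and 161 and 70.9 CPM in siCAG HeyA8 cells. These HeyA8 calls passed without either siCAG library and were lost without either siNT1 library, with the direction kept in each fit. DDIT4 had a log2 fold change of 2.59 without the 24 h siCAG library and 5.20 without the 48 h one, and CITED2 3.24 and 1.27. Between siNT1 and mock PC3 cells HMOX1, the heme oxygenase, passed as higher (2.13 ± 0.24, adjusted p = 0.0319, edgeR) and did not without any of the 4 libraries. In the interaction of line and siCAG, IGFBP3 passed as higher in PC3 (2.69 ± 0.52, adjusted p = 0.0494, edgeR). It passed without either HeyA8 siCAG library (2.96 and 2.39) and did not without either HeyA8 siNT1 library.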

How the data were processed

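Total RNA libraries (Illumina TruSeq with ribosomal RNA depletion, paired end) were made by the authors, and per the labels reads were aligned to hg38 with STAR and counted per gene with HTSeq; the study's methods also name Tophat, so which aligner made these values is not settled. The deposited file held raw read counts for 26485 genes by symbol and 16 libraries of 27937092 to 31790209 counts. Whether strand was used in counting is not given in the sources used here, and the dose is 1 nM in the labels and differs in the study's methods.

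The counts were tested with edgeR 4.0.16 in R 4.3.3 (TMM, filterByExpr, quasi-likelihood F test, Benjamini-Hochberg adjustment over all genes tested, threshold 0.05). The siRNA contrasts were fitted within each line over 8 libraries with terms for treatment and time. Lines were compared over 8 control libraries, and interactions over all 16. Replicate numbers follow time (24 h is 1, 48 h is 2), so the time term is the replicate block; nothing in the labels says that the libraries came from separate cultures. Ratios at a single time used CPM + 0.1. Coordinates, exon lengths and UTRs came from GENCODE 44 (hg38), and the length column of the file was not used. Promoters came from RefSeq (GRCh38.p14). All 42 members matched GENCODE symbols. Full statistics are given for at most 8 called members of largest change or, where fewer than 3 passed, for the 3 of smallest p, and called genes of each related list are named, at most 4; statistics of other members, among them HIF1A, VEGFA and NDRG1, were added after their values were seen. The gene lists were other glycolysis, lactate and pyruvate genes, the pentose phosphate pathway, other HIF regulators and other known hypoxia targets. Some genes read for these lists and for the line markers are not reported here. The members and lists were chosen with earlier results of these data known. The fitting code was tested on simulated counts. Alternatives were RLE size factors, DESeq2 1.42.0, the likelihood ratio test, other filters, other samples in the fit, mock as control and each library left out; fits without the siCAG or siGGGGGC libraries, with library totals alone, of the related lists with each library left out, and of named HeyA8 siCAG results without each HeyA8 library of the contrast were added after seeing the data.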

Additional observations from a re-analysis of the deposited data

Results flagged for a closer look

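Members whose 2 PC3 libraries moved one way against siNT1 and whose 2 HeyA8 libraries moved the other way were listed for both siRNAs, 5 after siGGGGGC and 3 after siCAG. Their differences (PC3 minus HeyA8, log2) were tested as interactions, and 0 of the 8 passed after adjustment over 15887 genes. After siGGGGGC, HK2 differed by 1.44 (adjusted p = 0.667, edgeR), with PC3 log2 ratios of 0.66 at 24 h and 1.32 at 48 h beside HeyA8 ratios of -0.31 and -0.55. PFKFB3 differed by 1.37 (adjusted p = 0.709, edgeR), MXI1 by 0.76 (adjusted p = 0.810, edgeR) and PFKM by 0.68 (adjusted p = 0.752, edgeR), each higher in PC3. HIF1A differed by -1.29 (adjusted p = 0.746, edgeR), with PC3 ratios of -1.42 and -0.65 beside HeyA8 ratios of 0.15 and 0.36. After siCAG, NDRG1 differed by -1.45 (adjusted p = 0.124, edgeR), VEGFA by -1.33 (adjusted p = 0.296, edgeR) and ANKRD37, on low counts, by 0.45 (adjusted p = 0.883, edgeR). Without the 48 h HeyA8 siCAG library NDRG1 (adjusted p = 0.00809, edgeR) and VEGFA (adjusted p = 0.0133, edgeR) passed as lower in PC3, and ANKRD37 differed by -0.29. Without the 24 h one NDRG1 (adjusted p = 0.0706, edgeR) and VEGFA, which then differed by -0.43 (adjusted p = 0.544, edgeR), missed the threshold, and ANKRD37 differed by 1.36. The HeyA8 ratios after siCAG rest on the pair of libraries that differed most between times.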

How the results depend on the processing

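With 2 libraries a group, counts of calls depended on the model and on single libraries. Among the named genes refitted the sign changed for 2, both without the 48 h HeyA8 siCAG library: HIF1A after siCAG in HeyA8 cells went from 0.63 to -0.39 and ANKRD37 in the siCAG interaction from 0.45 to -0.29 (log2), neither called. The members' median changed sign in HeyA8 cells after siGGGGGC without the 48 h siGGGGGC library (0.17 to -0.06) and after siCAG without the 24 h siCAG library (0.10 to -0.20). In PC3 cells after siCAG it went from -0.02 to 0.04 with library totals alone, 0.09 without the 48 h siCAG and 0.02 without the 24 h siNT1 library. Shares in parentheses are those of all genes called higher and lower. Main counts were 20 members called in PC3 after siGGGGGC, 1 in HeyA8 after siCAG, 32 between lines, and 0 in the other 8 comparisons. Without the replicate block (no term for time), 5 members were called in PC3 after siGGGGGC and 2 in HeyA8 after siCAG (3.36% and 5.2%), and no other comparison changed in count by over 1.5 times. Fitting only the 4 libraries compared gave 8 in PC3 and 4 in HeyA8 after siGGGGGC, 8 and 0 after siCAG (HeyA8 1.1% and 3.21%), and 3 (1.07% and 0.664%) and 6 (6.79% and 5.05%) between siNT1 and mock. Mock as the control gave 4 in either line after siCAG. Added fits gave 13 in PC3 after siGGGGGC without the siCAG libraries, and 2 in PC3 (0.268% and 2.0%) and 0 in HeyA8 (0.409% and 1.54%) after siCAG without the siGGGGGC libraries. DESeq2 gave 3 in PC3 and 5 in HeyA8 (8.3% and 10.9%) after siCAG, 2 for siNT1 against mock and 5 for time in PC3, and 1 and 2 for the interactions with siGGGGGC and siCAG. The likelihood ratio test gave the same counts for these comparisons except 4 in HeyA8 after siCAG (8.3% and 9.79%). Without a filter on low counts 1 member passed between siNT1 and mock in PC3 (0.295% and 0.102%) and 2 after siCAG in HeyA8 (2.25% and 4.2%). Control libraries alone gave 12 for time in HeyA8. Beyond fewer samples in a fit, the cause of these changes was not tested.

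Leaving out 1 library at a time gave 0 to 27 members in PC3 after siGGGGGC, 0 to 21 in HeyA8 after siCAG, 31 to 35 between lines, 0 to 7 for the siCAG interaction and 0 throughout for the other comparisons, time by both libraries of a treatment included. The lone library left in a siRNA group was assumed to vary like the other groups. Between lines, leaving out 1 library called 5901 to 6139 of all genes higher in PC3 and 5231 to 5663 lower, of 14710 to 14882 tested. Shares of all genes beside 27, 21 and 7 members are given with those results above. GCCCCC was found in 16 or 11 members by choice of transcript. Without scaling factors the median of all genes between lines moved from 0.08 to 0.36 (log2). At 2 libraries a group, misses do not show equal levels, and depth limited CA9, EGLN3, ANKRD37 and, in PC3, SLC2A3.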
